A study of Mus musculus with 2 samples.

Results

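The rod phototransduction activation cascade was examined as 9 genes of the 31053 in the expression matrix: Gnat1, Gnb1, Gngt1, Pde6a, Pde6b, Pde6g, Cnga1, Cngb1 and Sag. They were chosen by name, and their molecules were counted in 732 barcodes called rods, because a unique molecular identifier (UMI) of Nrl, Pdc or Rom1 was detected, and in the other 102 of 834 barcodes. The data came from wild-type mouse retinas that were electroporated at birth with pCIG2 plasmids, which carry an IRES2-EGFP reporter, as empty control or with lamin A (Lmna) or the lamin B receptor (Lbr), 2 nuclear envelope proteins that tether heterochromatin. After 8 weeks viable EGFP+ cells were sorted, each of the 3 conditions was stained with its own lipid-anchored oligonucleotide tag (MULTI-seq), and all were pooled in 1 droplet run with a 3′ expression library and a tag library. All 3 conditions therefore shared electroporation, the reporter and the sort, and the study asked how tethering affects expression in rods. Which tag marks which condition is not given in the labels and files used here, so values are given for tags 1, 2 and 3. Each tag is 1 pool of cells without replicates, so no test was made, and the 95% intervals below measure counting error and leave out differences between animals.

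Rods detect light through a G-protein cascade in the outer segment. Light absorption switches on transducin, whose alpha, beta and gamma subunits are encoded by Gnat1, Gnb1 and Gngt1. Transducin relieves the inhibition of the phosphodiesterase PDE6, which is built from the catalytic subunits of Pde6a and Pde6b and the inhibitory subunit of Pde6g. The enzyme hydrolyses cyclic GMP, so that the cyclic nucleotide-gated channel of Cnga1 and Cngb1 closes and the cell hyperpolarises, whereas arrestin (Sag) takes part in ending the signal. Cones run a parallel cascade with their own genes, and the transcription factors CRX and NRL drive many photoreceptor genes.

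Promoter sequences of the members are shown because CRX-type and NRL-type motifs could be looked for in genes that share a cell type but differ in level. RefSeq (GRCm38.p6) gave an entry for 6 of the 9 members. For all of these but Cnga1, the 150 bases before the start are printed 5′ to 3′ on the gene's strand. Capitals mark TAATCC (CRX-type, or its reverse complement GGATTA) and TGCTGA (NRL-type, or TCAGCA), searched on both strands.
Cngb1: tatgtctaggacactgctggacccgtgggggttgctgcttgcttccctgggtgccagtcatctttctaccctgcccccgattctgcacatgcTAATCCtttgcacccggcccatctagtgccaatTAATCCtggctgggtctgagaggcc
Gngt1: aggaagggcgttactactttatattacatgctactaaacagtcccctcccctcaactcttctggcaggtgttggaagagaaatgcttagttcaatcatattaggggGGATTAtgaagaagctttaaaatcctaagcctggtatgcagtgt
Sag: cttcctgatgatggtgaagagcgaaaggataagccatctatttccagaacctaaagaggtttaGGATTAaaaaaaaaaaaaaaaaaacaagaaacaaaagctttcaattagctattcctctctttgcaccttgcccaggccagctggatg
Pde6b: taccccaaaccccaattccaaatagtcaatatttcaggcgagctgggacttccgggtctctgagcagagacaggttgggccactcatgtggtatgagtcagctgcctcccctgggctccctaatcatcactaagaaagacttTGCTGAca
Gnb1: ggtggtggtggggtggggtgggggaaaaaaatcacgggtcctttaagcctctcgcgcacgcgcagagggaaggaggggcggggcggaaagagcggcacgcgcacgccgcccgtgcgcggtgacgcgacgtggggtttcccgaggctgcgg
The Cngb1 window (chr8:95306586-95306735, minus strand) held 2 CRX-type motifs, 58 and 25 bases before the start. The Gngt1 window (chr6:3993858-3994007, plus strand) and the Sag window (chr1:87803530-87803679, plus strand) held 1 each, at 44 and 87 bases. In the Pde6b window (chr5:108388223-108388372, plus strand) 1 NRL-type motif lay 8 bases before the start. Neither motif was in the windows of Gnb1 (chr4:155491211-155491360, plus strand), whose GC content was 70.7%, or Cnga1 (chr5:72642753-72642902, minus strand, not printed). Of 32851 promoter windows of the same length, 3.60% held the CRX-type and 10.1% the NRL-type motif. A match is a description of letters and not a measured site.

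The rod label was checked first. Nrl was detected in 508 barcodes, Pdc in 682 and Rom1 in 689, and 493 barcodes held all 3 genes, whereas 78 were rods through 1 gene alone. Pdc and Rom1 are also used by cones, so the rule does not separate cones: of 11 barcodes with at least 3 of 8 cone markers, 10 were rods by the rule. The rods also included 27 of 40 barcodes with 3 or more Müller glia markers, 31 of 51 with as many bipolar markers (a set made after seeing the data) and 4 of 16 with as many microglia markers. The 834 barcodes held 2487110 UMIs in all, and 645 barcodes were also in the tag library. Rods were deeper than the others, with medians of 2491.5 and 1185 UMIs and of 16.6% and 39.8% mitochondrial UMIs. 1 barcode of tag 1 with 85822 UMIs stood apart, carried both Müller and bipolar markers and exceeded the limit on genes. Comparisons between tags used the 360 rods that met the limits stated in the study's methods (200 to 2500 genes and at most 18% mitochondrial UMIs) and were not called doublets from their expression by Scrublet. Of these, 189 carried tag 1, 134 tag 2, 23 tag 3 and 14 no tag. The tags called 10 of these 14 doublets, so they enter values pooled over all 360 rods but no tag. Median depths of the rods within limits were 2858, 2639 and 2720 UMIs in tags 1, 2 and 3. The study reported more rods than these after its own filters, so its set of rods was not reproduced. Without the limits tags 1, 2 and 3 held 256, 301 and 37 rods.

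All 9 genes were among the more abundant transcripts of these 360 rods, and together they held 64641 UMIs or 6.12% of all rod UMIs. By counts of molecule ends Gngt1 was 6th of 11288 detected genes, Pde6g 7th, Sag 8th, Gnb1 17th, Gnat1 22nd and Cnga1 26th. The catalytic PDE6 genes and the channel's beta subunit were lower, with Pde6b 114th, Pde6a 131st and Cngb1 174th. Divided by the longest annotated transcript, the order ran from Pde6g (6515 UMIs per kilobase) through Gngt1 (5925), Sag (2932), Gnat1 (2228), Gnb1 (1918), Cnga1 (1424), Pde6b (318) and Pde6a (250.2) to Cngb1 (140). Neighbours in this order that changed places between the 2 scales were Gngt1 with Pde6g and Gnb1 with Gnat1.

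Against the other barcodes the cascade was 32.9-fold higher in rods, at 52742 counts per 1000000 UMIs (CPM) in 732 rods and 1602 in 102 other barcodes (log2 ratio 5.04, interval 4.90 to 5.19). All 9 members were past 1.5-fold higher, where 48.3% of 1581 genes were (20 or more UMIs expected in both sets). The log2 ratio of the sum depended on the processing, from 2.35 with 1 count per gene and barcode to 7.87 with the limits on cells. Those limits left 409 barcodes, of which 389 were rods, so few others remained in that comparison. Since rods were chosen by detection of photoreceptor genes, this direction is a description. The transducin genes stood at 4905 against 93.0 CPM (Gnat1), 5232 against 97.2 (Gnb1) and 13711 against 482 (Gngt1). Pde6a had the largest contrast, with 2459 UMIs in rods and 1 in the other barcodes (log2 ratio 7.43, interval 5.53 to 13.3). The smallest was that of Cngb1, at 724 against 63.4 CPM (log2 ratio 3.47, interval 2.79 to 4.35). Cnga1 lay at 3313 against 33.8 CPM, and Sag at 11654 against 266.

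Members were found in few of the other barcodes. A UMI of Gngt1 was present in 26 of the 102 (25.5%), of Pde6g in 17, of Sag in 15 and of Gnat1 and Gnb1 in 10 each, but Pde6b and Cnga1 were present in 3 each and Pde6a in 1. In rods the shares ran from 46.9% (343 of 732, Cngb1) to 95.2% (697, Gngt1). Microglia should lack the rod-specific members, which do not include Gnb1, whose beta subunit also serves other G proteins. The 16 microglia-marker barcodes, with a median of 3625 UMIs, held 173 cascade UMIs (2545 CPM), of which 163 were in 1 barcode. Gnat1 was in 2 of the 16 (12.5%, interval 1.55% to 38.3%). The 4 of them that were rods held 168 of these UMIs and the 12 outside the rod rule 5, a split that the rule itself can set.

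Barcodes with cone markers held only some of the rod cascade (the plot of levels by group of barcodes). Sag was in 11 of 11 of them at 8761 CPM, and Gngt1 and Pde6g were in 10 of 11 at 7672 CPM each. Gnat1 and Cnga1 were in 4 each, Gnb1 in 2, and Pde6a, Pde6b and Cngb1 in 1 each. The 34 Gnat1 UMIs were unevenly spread, with 27 in 1 barcode. Cone counterparts were high in the same 11 barcodes, at 11802 CPM for Pde6h, the cone inhibitory PDE6 subunit, 8761 for Gngt2, the cone gamma subunit, 2383 for Gnb3, 2338 for Arr3, cone arrestin, and 1884 for Gnat2. Within the limits 4 of these barcodes carried tag 1, 0 tag 2 and 1 tag 3. Cones are born before birth, and the sort was on the reporter of cells electroporated at birth.

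**Figure D1:**
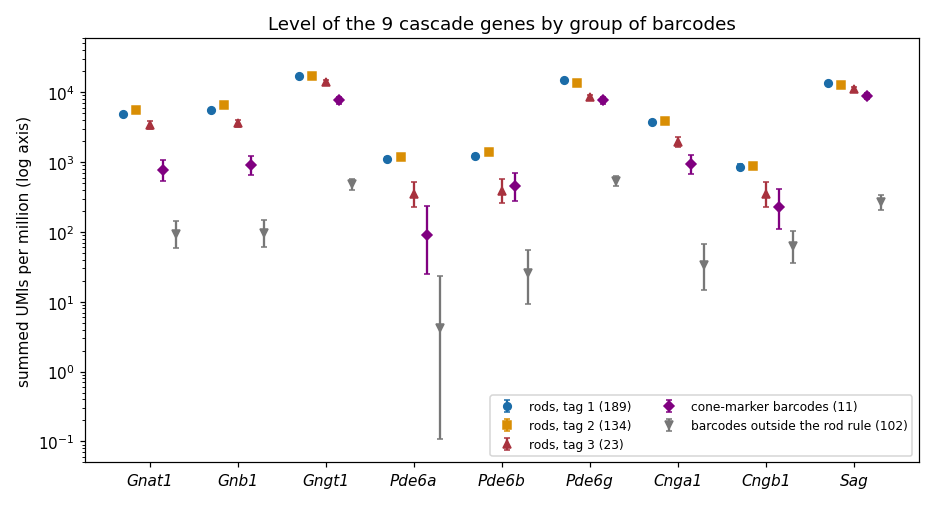
Level in CPM (log axis) of each cascade gene in rods within limits of tags 1, 2 and 3, in cone-marker barcodes and in barcodes outside the rod rule. Points are pooled levels and bars exact Poisson 95% intervals, and Sag, Gngt1 and Pde6g of the 11 cone-marker barcodes lie closest to the rods of tags 1 and 2.

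Transducin was compared between tags first. Gnat1 (ENSMUSG00000034837, chr9:107674474-107679712, minus strand, GENCODE M21 on GRCm38/mm10) reached 4823 CPM with tag 1 (interval 4645 to 5007), 5527 with tag 2 (5291 to 5770) and 3402 with tag 3 (2988 to 3856). Per rod its UMIs ran from 0 through a median of 12 to 102 in tag 1, from 0 through 15 to 46 in tag 2 and from 0 through 8 to 28 in tag 3, so that the tags overlapped cell by cell. On the log2 scale tag 2 differed from tag 1 by 0.20 (0.11 to 0.28), tag 3 from tag 1 by -0.50 (-0.70 to -0.31) and tag 3 from tag 2 by -0.70 (-0.90 to -0.51), and the next ratios are given in this order. The first was -0.0027 without the limits on cells. The second was -0.10 in rods with a Nrl UMI, of which tag 3 had 13, and -0.09 with 1 count per gene and rod. That count divides the rods with the gene by all gene detections of the tag, so it also depends on how many genes its rods held. It leaves little room for a difference, since Gnat1 was in 94.7% of tag 1 and 87.0% of tag 3 rods. Gnb1 (ENSMUSG00000029064, chr4:155491361-155559269, plus strand), whose beta subunit also serves other G proteins, stood in the same order with 5481, 6505 and 3583 CPM and medians of 14, 17 and 9 UMIs per rod. Its log2 ratios were 0.25 (0.17 to 0.32), -0.61 (-0.80 to -0.43) and -0.86 (-1.05 to -0.67), of which the first was 0.02 without the limits on cells and the second -0.15 in rods with a Nrl UMI. Gngt1 (ENSMUSG00000029663, chr6:3993792-3997436, plus strand) differed less, with 16887, 17081 and 14025 CPM, medians of 51, 46.5 and 41 UMIs per rod, and log2 ratios of 0.02 (-0.03 to 0.06), -0.27 (-0.36 to -0.17) and -0.28 (-0.38 to -0.19). Without the limits on cells Gngt1 was instead higher in tag 3 than in tag 1 and tag 2, at log2 ratios of 0.08 and 0.24 (-0.02 and 0.24 when the barcode with most UMIs was also left out).

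The catalytic PDE6 genes were also lower in tag 3 than in the other tags. Pde6a (ENSMUSG00000024575, chr18:61220315-61289924, plus strand) had 634 UMIs (1110 CPM) with tag 1, where 122 of 189 rods held it, 437 (1165 CPM) with tag 2, where 90 of 134 did, and 25 (349 CPM, interval 226 to 514) with tag 3, where 11 of 23 did. Pde6b (ENSMUSG00000029491, chr5:108388391-108432397, plus strand) had 694 UMIs in 126 rods (1215 CPM), 516 in 94 (1376) and 28 in 10 (390.4, interval 259 to 564). No rod of tag 3 held more than 6 UMIs of either gene, whereas the highest rods held 28 and 26 in tag 1 and 21 and 32 in tag 2, although most rods of every tag lay in the shared range. Against tag 1, tag 3 had log2 ratios of -1.64 for Pde6a (-2.31 to -1.10) and -1.61 for Pde6b (-2.24 to -1.09). Against tag 2 they came to -1.71 (-2.38 to -1.16) and -1.79 (-2.42 to -1.27). With 1 count per gene and rod, set against all gene detections of the tag, they came to -0.37 and -0.55 over tag 1 and to -0.57 and -0.76 over tag 2. Without the rod with most UMIs of each gene in each tag they came to -1.93 and -1.86 over tag 1. In rods with a Nrl UMI, of which tag 3 had 13, they came to -1.89 and -2.16 over tag 1 and to -2.00 and -2.53 over tag 2. UMIs of a gene were grouped within rods: 74.9% of the 231 rods with a Pde6a UMI held 2 or more although the median over all 360 rods was 1, so these intervals are too narrow.

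The inhibitory subunit Pde6g (ENSMUSG00000025386, chr11:120447605-120453500, minus strand) reached 14968 CPM with tag 1, 13426 with tag 2 and 8504 with tag 3. Its median per rod was 43, 36 and 28 UMIs, and its log2 ratios were -0.16 (-0.21 to -0.11), -0.81 (-0.94 to -0.70) and -0.66 (-0.78 to -0.54). Tag 3 was thus lowest, but 21 of its 23 rods held a Pde6g UMI, against 184 of 189 and 127 of 134. With 1 count per rod, which leaves little room for a difference where nearly all rods hold the gene, the log2 ratio over tag 1 was -0.06.

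Both channel genes were also lowest in tag 3. Cnga1 (ENSMUSG00000067220, chr5:72603696-72644275, minus strand) reached 3780 CPM with tag 1, 3858 with tag 2 and 1924 with tag 3, with medians of 9, 8.5 and 5 UMIs per rod and log2 ratios of 0.03 (-0.07 to 0.13), -0.97 (-1.23 to -0.73) and -0.999 (-1.27 to -0.75). Cngb1 (ENSMUSG00000031789, chr8:95239045-95306585, minus strand) had 856, 877 and 349 CPM from 489, 329 and 25 UMIs. It was in 101 of 189, 77 of 134 and 5 of 23 rods, and 11 of the 25 UMIs of tag 3 lay in 1 rod. On the log2 scale tag 3 differed from tag 1 by -1.27 (-1.94 to -0.72), a value that became -1.97 without the rod with most Cngb1 UMIs in each tag, -1.16 with 1 count per rod and -0.59 without the limits on cells. Over tag 2 it was -1.31 (-1.98 to -0.74), and -1.41 with 1 count per rod. Whether Cngb1 or the catalytic PDE6 genes differed most between tag 3 and tag 1 therefore depended on the counting. The ratio of Cnga1 over tag 1 was -0.22 with 1 count per rod. Tags 1 and 2 did not differ in either channel gene beyond the counting interval, which for Cngb1 ran from -0.17 to 0.24.

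Sag (ENSMUSG00000056055, chr1:87803680-87845158, plus strand) was the most even member beside Gngt1. Its level was 13678 CPM under tag 1, 12823 under tag 2 and 11042 under tag 3, with medians of 36, 35 and 29 UMIs per rod. The log2 ratios were -0.09 (-0.15 to -0.04), -0.31 (-0.42 to -0.20) and -0.22 (-0.33 to -0.11). In rods with a Nrl UMI, of which tag 3 had 13, the ratios of tag 3 had the other sign, at 0.10 over tag 1 and 0.06 over tag 2. Pseudogenes overlapped Gnb1, Pde6a and Cnga1, but none covered a member's 3′ end.

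**Figure D2:**
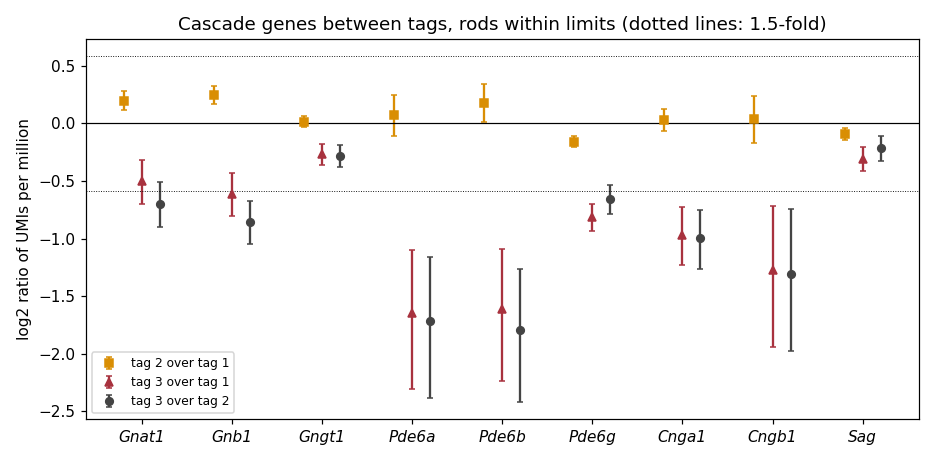
Log2 ratio of the CPM of each cascade gene between tags in rods within limits, with exact conditional 95% intervals as bars and 1.5-fold marked by dotted lines. Ratios of tag 2 over tag 1 lie between -0.16 and 0.25, and those of tag 3 are lowest for Pde6a and Pde6b when all UMIs are counted, as here.

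Over the list, 0 of 9 members were past 1.5-fold between tags 2 and 1, where 13.4% of 2441 genes were past it higher and 20.2% lower. The median log2 ratio of the members was 0.04, beside -0.08 over those genes. Between tags 3 and 1, 6 of 9 members were past 1.5-fold lower and 0 higher, where of 504 genes 19% were past it lower and 12.7% higher, and the medians were -0.81 for the members and -0.04 for all. Between tags 3 and 2, 7 of 9 were past 1.5-fold lower and 0 higher, where of 495 genes 20.2% were lower and 16.6% higher, with medians of -0.86 and 0.0020. The comparisons share tags, and the members' own ratios stand above. With 1 count per gene and rod, 1 member was past 1.5-fold lower when tag 3 was set against tag 1 and 2 when it was set against tag 2. That count leaves little room for members found in most rods, such as Pde6g, in 97.4% of tag 1 and 91.3% of tag 3 rods. Without the limits on cells 4 members were past 1.5-fold lower in each comparison. No share of all genes is given for these other settings, so their counts cannot be set against one. Summed over the 9 genes the cascade came to 62798 CPM under tag 1, 62637 under tag 2 and 43567 under tag 3, for log2 ratios of -0.0037 (-0.03 to 0.02), -0.53 (-0.58 to -0.47) and -0.52 (-0.58 to -0.47).

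Markers of other cells differed between the tags. Among the rods within limits, any of the 8 cone markers was present in 53 of the 189 rods with tag 1, 13 of the 134 with tag 2 and 15 of the 23 with tag 3, at 2103, 208 and 5367 CPM, with Opn1mw, Arr3, Gnat2, Pde6h and Pde6c at 0 in tag 2 and Pde6c at 0 in tag 3. Most of these rods held Gnb3, the beta subunit of cones and ON bipolar cells, and 4, 0 and 1 held 3 or more cone markers. Summed Müller glia markers had 909, 635 and 7988 CPM, in 95, 49 and 13 rods, with 3 of 10, 2 of 10 and 7 of 10 at 0. Those of bipolar cells had 226, 4242 and 4057 CPM, in 38, 25 and 6 rods. Those of microglia had 896, 5.33 and 1394 CPM, in only 6, 1 and 1 rods. The 7 rod markers, none of them a member, stood at 59748, 63770 and 36220 CPM. The cascade's log2 ratio between tags 3 and 1 was -0.51 without cone-marker barcodes and -0.37 without bipolar-marker barcodes. In each case 5 members were past 1.5-fold lower, with no share of all genes given beside them. The first step left 185 rods of tag 1 and 22 of tag 3, and the second 188 and 22. The part of other cells in the remaining difference was not tested. Tag 3 rests on 23 rods, and the level of a gene per rod cannot be told apart from a mixture of rods and other cells beyond the marker barcodes left out.

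Subunit proportions were read from UMI ratios in the same rods. Transducin's beta and alpha transcripts were near parity, with 1.15 Gnb1 UMIs per Gnat1 UMI (interval 1.11 to 1.19), and 0.861 per unit of transcript length. Ratios by tag were 1.14 (1.08 to 1.20), 1.18 (1.11 to 1.25) and 1.05 (0.881 to 1.26), which overlap. Within 301 rods with at least 10 UMIs of the pair, Gnb1 made up a median of 53.1% (quartiles 41.7% and 66.7%). Gngt1 exceeded Gnat1 by 3.36 (3.26 to 3.47), with 3.50, 3.09 and 4.12 in tags 1, 2 and 3, and the interval of tag 2 (2.94 to 3.25) lay below those of tag 1 (3.36 to 3.65) and tag 3 (3.58 to 4.76), which overlapped.

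The catalytic subunits of PDE6, which form a heterodimer in rods, were also close, at 1.13 Pde6b UMIs per Pde6a UMI (1.05 to 1.23). By tag the ratio was 1.09 (0.981 to 1.22), 1.18 (1.04 to 1.34) and 1.12 (0.63 to 2.00). Both genes were lower in tag 3, and their ratio there had a wide interval around that of the other tags. Pde6g exceeded their sum by 5.99 (5.74 to 6.25), and this ratio was 6.44 (6.08 to 6.83) under tag 1, 5.28 (4.93 to 5.67) under tag 2 and 11.5 (8.68 to 15.5) under tag 3, where it rested on 53 catalytic UMIs. Counted once per rod, Pde6g came to 0.734 of the sum, since nearly all rods held it.

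For the channel, Cngb1 had 0.223 UMIs per Cnga1 UMI (0.207 to 0.240), or 0.0986 per unit of length. By tag it was 0.226 (0.205 to 0.250), 0.227 (0.201 to 0.256) and 0.181 (0.113 to 0.279), with overlapping intervals. In 202 rods with 10 or more UMIs of the pair the median Cngb1 share was 15.2%, with quartiles of 0% and 29.5%. Counted once per rod the ratio was 0.603, because Cngb1 was in 190 rods and Cnga1 in 315.

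**Figure D3:**
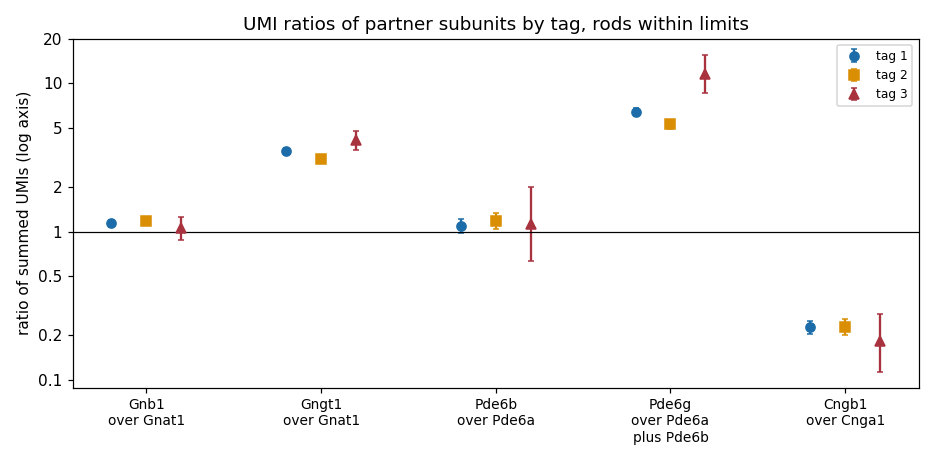
Ratio of summed UMIs (log axis) between partner subunits in rods within limits of each tag, with exact conditional 95% intervals as bars. Gnb1 over Gnat1 and Pde6b over Pde6a lie near 1 in every tag, Cngb1 over Cnga1 lies between 0.181 and 0.227, and Pde6g over the catalytic subunits runs from 5.28 in tag 2 to 11.5 in tag 3.

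Co-detection was compared after each rod was thinned to 1200 UMIs, which left 328 rods and left out 32 shallower ones (18, 10 and 1 in tags 1, 2 and 3). All 3 transducin genes were found together in 294 of the 328 (89.6%, interval 85.8% to 92.7%), all 3 PDE6 genes in 109 (33.2%, 28.2% to 38.6%) and both channel genes in 120 (36.6%, 31.4% to 42.1%). Unthinned, the shares were 90.8%, 47.2% and 49.7% of 360 rods. The low PDE6 share followed its catalytic genes, since Pde6a was found in 53.0% and Pde6b in 57.9% of thinned rods but Pde6g in 97.0%. Whenever Pde6a and Pde6b were both found, Pde6g was found too, while 65 rods held Pde6a without Pde6b, 81 the reverse and 73 neither. The product of the separate shares was 84.3% for transducin, 29.8% for PDE6 and 35.4% for the channel, each a little under the share found.

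By tag, transducin was complete in 90.1% of 171 rods with tag 1, 92.7% of 124 with tag 2 and 77.3% of 22 with tag 3 (interval 54.6% to 92.2%). PDE6 was complete in 34.5%, 34.7% and 13.6% (3 of 22, interval 2.91% to 34.9%), and the channel in 36.3%, 41.1% and 18.2% (4 of 22, 5.19% to 40.3%). The intervals of tag 3 overlapped those of tags 1 and 2 for all 3 complexes, and the differences themselves were not tested. In 48 barcodes outside the rod rule thinned alike (54 left out), 0 held a complete complex, which allows 3 of 48. Among 12 thinned microglia-marker barcodes 1, a rod by the rule, held complete transducin and both channel genes.

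The number of members per rod had a median of 7 at 1200 UMIs (quartiles 7 and 8), and 43 of 328 rods (13.1%) held all 9. Unthinned, the median was 8 and 102 of 360 rods (28.3%) held all 9. Thinned medians were 7, 8 and 6 in tags 1, 2 and 3, and 132 of 171, 106 of 124 and 8 of 22 rods held 7 or more. Of the thinned barcodes outside the rod rule 33 of 48 held none and 0 held more than 4. In the unthinned set 9 rods within limits held 2 members or fewer, of which 6 carried tag 2. Among them 6 were bipolar-marker, 2 microglia-marker and 1 Müller-marker barcodes, sets that can overlap, while 1 held Nrl. Their median depth was 7778 UMIs, so that low depth did not accompany the missing members.

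**Figure D4:**
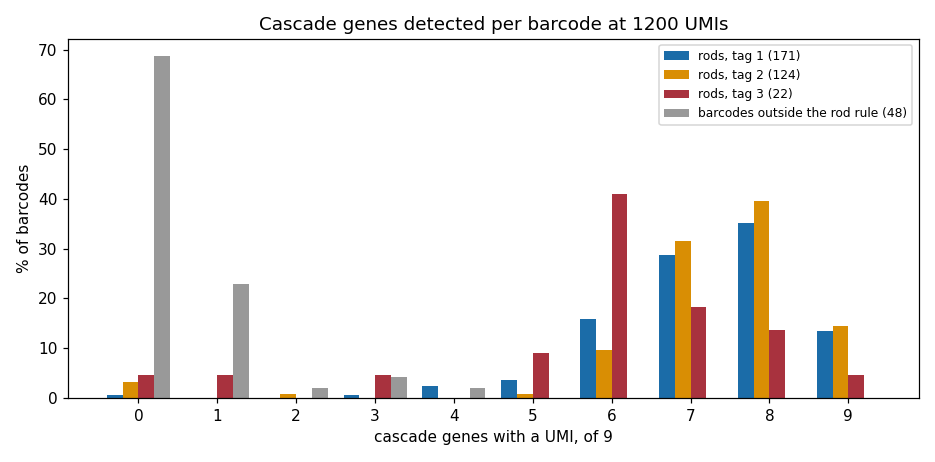
Share of barcodes (percent) by the number of the 9 cascade genes with a UMI, after thinning to 1200 UMIs, for rods of tags 1, 2 and 3 and for barcodes outside the rod rule. Most rods of tags 1 and 2 lie at 7 or 8 genes, the rods of tag 3 are most often at 6 (9 of 22), and 33 of 48 other barcodes lie at 0.

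Across the 360 rods, which share 1 library and come from 3 conditions, levels of the abundant members varied together most. Pearson's r of log levels was 0.73 for Gngt1 with Pde6g, 0.65 for Sag with either, and 0.56 for Gnat1 with Gnb1. Pairs with a low-count member had small values, down to 0.13 for Gngt1 with Cngb1. Partner subunits with low counts did not stand out, at 0.18 for Pde6a with Pde6b and 0.19 for Cnga1 with Cngb1. Of 635 other genes detected in at least 20% of rods, those most like the mean of the 9 members included Prph2 (r = 0.68) and Rom1 (0.62), both outer segment disc proteins, Rcvrn (0.61), the calcium sensor recoverin, and Pdc (0.61), which binds transducin beta-gamma. The mean had r = 0.04 with total UMIs and 0.08 with the mitochondrial share. The lowest r was that of Gnb3, the beta subunit of cones and ON bipolar cells, at -0.37.

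**Figure D5:**
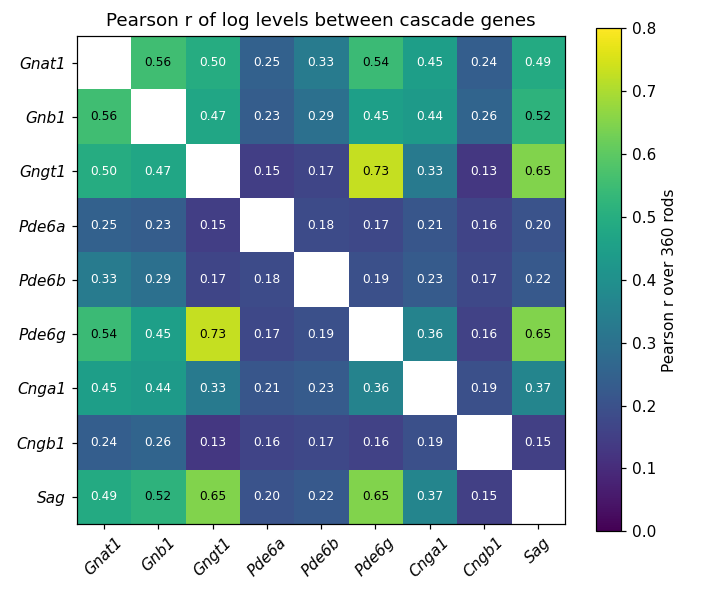
Pearson r of log levels (UMIs scaled to 10000 per rod) between each pair of cascade genes over 360 rods within limits. Values run from 0.13 to 0.73, and the highest join Gngt1, Pde6g and Sag.

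Genes that shut off or recover the response were read from a list of 11. Of these, 11, 8 and 7 had enough UMIs in the 3 comparisons. None was past 1.5-fold between tags 2 and 1. Between tags 3 and 1, 4 of 8 were past 1.5-fold lower and 0 higher, namely Guca1a (-1.06), Guca1b (-0.62), both activators of guanylate cyclase, Gucy2e (-2.85), the cyclase itself, from 3 UMIs in tag 3, and the exchanger Slc24a1 (-0.82). Between tags 3 and 2 they were 4 of 7, namely Guca1a (-0.90), Guca1b (-0.85), Slc24a1 (-0.91) and Gnb5 (-0.62), a partner of the GTPase activator Rgs9. Of all genes compared, 19% and 20.2% were past 1.5-fold lower in these comparisons. Pdc had 8690, 7246 and 6176 CPM.

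The cone counterparts had their own distribution. Gnb3 was at 551 CPM under tag 1 (51 of 189 rods), 197 under tag 2 (11 of 134) and 1464 under tag 3 (14 of 23), for log2 ratios of -1.48 (-1.87 to -1.11), 1.41 (1.08 to 1.73) and 2.89 (2.45 to 3.34). It was therefore not limited to the 5 cone-marker barcodes. Gngt2, Pde6h and Gnat2 were instead carried by few rods: 59 of the 62 Gngt2 UMIs and all 69 Pde6h and 20 Gnat2 UMIs of tag 3 lay in 1 rod each, and tag 2 held 2, 0 and 0. Of the 8 counterparts 4 were tested between tags 2 and 1, all past 1.5-fold lower (20.2% of all genes), 3 between tags 3 and 1, all higher (12.7% of all genes), and 1 (Gnb3) between tags 3 and 2.

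The limit on mitochondrial UMIs removed 318 of 732 rods, and members did not cross it alike. Of these, 158 were tag 2 rods, 44 tag 1 and 10 tag 3, and the rest carried no tag. Above the limit the cascade stood at 42316 CPM and within it at 59009 (log2 ratio -0.48, interval -0.50 to -0.46). These values pool tags whose rods crossed the limit in unequal shares, together with rods that carried no tag. The 117 rods absent from the tag matrix, above and within the limit together, stood at 31604 CPM with a median of 35.2% mitochondrial UMIs. Within tag 2 the ratio was also -0.48 (-0.50 to -0.45), but it was -0.08 (-0.12 to -0.04) within tag 1, and within tag 3 the cascade was higher above the limit, at 49552 against 45756 CPM (0.12, interval 0.01 to 0.22). Above the limit 9 of 9 members were lower in tag 2, 7 in tag 1 and 2 in tag 3, when all UMIs made the total. Rods above the limit hold more mitochondrial UMIs, which enlarge that total. With mitochondrial UMIs left out of it, 8 members were lower in tag 2, 2 in tag 1 and 0 in tag 3. No share of all genes is given beside these counts. On the scale of all UMIs Gngt1 was higher above than within the limit in tag 1 (16253 against 14831 CPM) and tag 3 (16981 against 15537 CPM), and lower in tag 2 (10720 against 16679 CPM). The next ratios are again pooled over all rods, with or without a tag. With mitochondrial UMIs left out of the total the pooled log2 ratio was -0.20, beside values of 0.15, -0.34 and 0.27 within tags 1, 2 and 3. On that scale Gnb1 (0.01), Cnga1 (-0.0026) and Pde6a (0.03) had intervals that include 0, and Gnat1 was higher above the limit, at 0.14 (0.08 to 0.20). Pde6b (-0.47), Pde6g (-0.35), Sag (-0.32), Gngt1 (-0.25) and Cngb1 (-0.18) were lower. On the scale of all UMIs all 9 had negative pooled log2 ratios, from -0.14 (Gnat1) to -0.75 (Pde6b), and that of Pde6b was -0.67 without the barcode with most UMIs. The Pde6b to Pde6a ratio was 1.21 (1.13 to 1.29) within and 0.856 (0.773 to 0.948) above the limit. In the rods of tag 2 without the limits on cells, Pde6b stood at 1128 CPM and in tag 1 at 1450, so that its log2 ratio was -0.36 in place of 0.18. That ratio was -0.25 without the barcode with most UMIs, which held 219 of the 1399 Pde6b UMIs of tag 1.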

How the data were processed

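RNA and sample tags of sorted mouse retinal cells were measured in 1 pooled droplet run of 3 conditions. The authors made the deposited expression matrix, which holds UMI counts per gene and barcode that are not normalized, with Cell Ranger against mm10 (version 6.1.2 in the study's methods and processing notes, 3.1.0 in the matrix header). The authors also deposited tag counts per barcode and a table of tag calls from the MULTI-seq workflow, of which the calls were used. The sources used here do not give the annotation used for counting. GENCODE M21 (GRCm38) matched 30934 of 31053 gene identifiers. A 3′ library counts molecule ends, not bases.

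The members, companion lists and markers were chosen with earlier results of these data known. Rods were barcodes with a UMI of Nrl, Pdc or Rom1. For tags they were limited to 200 to 2500 genes and at most 18% UMIs of 13 mitochondrial genes, and 29 Scrublet calls among 409 barcodes (scanpy 1.11.5, expected rate 6%) were removed. The 22 doublet calls of the tags entered no tag, but 10 of them stayed among the 360 rods pooled over tags. UMIs were summed per gene and tag and divided by all UMIs (CPM). Log2 ratios had 0.5 UMIs added to each sum. A gene was compared if at least 20 UMIs were expected in both groups, and 1.5-fold was the size reported, with no p-value. Intervals are exact at 95% (Poisson for sums, Clopper-Pearson for shares, conditional for ratios), cover counting error only and treat UMIs as independent. A count of 0 allows 3 counts. The interval code was tested on simulated Poisson counts, the model that the intervals assume, so this did not try UMIs grouped within rods. All members were named. Companion genes were named if they were Pdc or a cone counterpart, or past 1.5-fold between tags with at least 20 expected UMIs, and genes were named for likeness. 1 companion gene is not reported here. For co-detection rods were thinned to 1200 UMIs, the 10th percentile rounded down. Alternatives concerned the filter, doublets, the rod rule, the total, counting once per rod, the tag call and its doublets, marker barcodes, the top cell of each gene, transcript length and thinning. Counting once per rod divided the rods with a gene by all gene detections of the same set, so its log2 ratios do not compare shares of rods.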

Additional observations from a re-analysis of the deposited data

Results flagged for a closer look

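Signal of the cascade also lay in rods that enter no comparison between tags. The 117 rods absent from the tag matrix held 6318 cascade UMIs, or 31604 CPM, at a median of 1231 UMIs and a mitochondrial median of 35.2%. The 19 rods called doublets by their tags held 3149 cascade UMIs, or 54311 CPM, at a median of 3163 UMIs. Both lay above the level that 3 UMIs would give, which was at most 51.7 CPM in these sets.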

How the results depend on the processing

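With 1 pool per tag no replicate could be left out. No paired analysis was possible because the labels give no replicate numbers and no result comes from a test. Tag 3 was lower than tags 1 and 2 in the cascade sum under all 13 alternatives, while the sum of tag 2 over tag 1, at -0.0037, took either sign. Of 351 values of member ratios under the alternatives, 315 kept their sign, and no member past 1.5-fold changed sign. The alternative without the barcode with most UMIs could not change any ratio between tags, because the limits had already removed it. It supplied 27 of the 351 values. Values that moved by more than the counting interval follow, with cascade log2 ratios in the order tag 2 over 1, tag 3 over 1, tag 3 over 2 and rods over others where they moved. Without the filter they were -0.19, -0.34 and -0.15, with 4 members past 1.5-fold for tag 3 over 2, subunit ratios of 1.07 (Gnb1), 2.80 (Gngt1) and 4.78 (Pde6g) and complete transducin in 85.7% of thinned rods. With the filter applied to rods over others that ratio was 7.87, where 389 of the 409 barcodes left were rods. Without doublet removal the sums were -0.040, -0.46 and -0.42. In rods with a Nrl UMI, which left 13 rods in tag 3, they were 0.12, -0.26, -0.38 and 5.28, with complete transducin in 94.7%. With 1 count per gene and rod they were 0.15, -0.25, -0.40 and 2.35, with 1 and 2 members of tag 3 past 1.5-fold and subunit ratios of 0.988 (Gnb1), 1.03 (Gngt1), 1.03 (Pde6b), 0.734 (Pde6g) and 0.603 (Cngb1). With the mean of each rod's CPM they were 0.10, -0.39 and, for rods over others, 3.84. Without mitochondrial UMIs in the total they were 0.058 (tag 2 over 1) and 4.74 (rods). The stricter tag call, which left 16 rods in tag 3, gave -0.74 and -0.73 for tag 3. Without cone-marker barcodes tag 2 over 1 was -0.034. Without the top cell of each gene tag 3 over 1 was -0.59 and rods over others 5.47. Per kilobase the subunit ratios were 0.861 (Gnb1), 2.66 (Gngt1), 1.27 (Pde6b), 11.5 (Pde6g) and 0.0986 (Cngb1). Unthinned, complete PDE6 and channel were in 47.2% and 49.7%. The next alternatives were chosen after seeing the data. Without bipolar-marker barcodes the sums were 0.17, -0.37 and, for rods over others, 4.61. Without the filter and mitochondrial UMIs they were -0.062, -0.30 and -0.24, with 3 members past 1.5-fold for tag 3 over 1. Without the filter and the barcode with most UMIs they were -0.23, -0.39 and -0.15, with 4 members for tag 3 over 2. Leaving out the 10 pooled rods that the tags called doublets moved none of these beyond the counting interval. The barcode with most UMIs exceeded the limit on genes, so leaving it out alone could change only rods over others. That ratio, at 5.05, stayed within the counting interval. The cause of these moves was not tested. Counts of members past 1.5-fold under the alternatives have no share of all genes beside them. Tag 3 is limited by 23 rods and 71729 UMIs.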

Other observations

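Barcodes outside the rod rule carried unequal amounts of the cascade by tag, at 268 CPM with tag 1 (4 UMIs in 8 barcodes), 242 with tag 2 (22 UMIs in 15) and 2966 with tag 3 (76 UMIs in 4), of which 73 UMIs lay in 1 barcode. Without that barcode tag 3 stood at 124 CPM, from 3 UMIs. The 51 bipolar-marker barcodes, rods and others together, held 14029 CPM, and 8673 CPM without the barcode with most UMIs, which held 3416 of their 6998 cascade UMIs. The 29 rods called doublets by Scrublet held 56096 CPM.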
